A study of Mus musculus with 8 samples.

Results

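The genes described here are the mouse cytochrome P450 genes of the Cyp2a, Cyp2c, Cyp2d, Cyp2f, Cyp2g and Cyp2j subfamilies, which lie in clusters on chromosomes 7, 19, 15 and 4 of mm10. They were chosen by symbol alone, which gave 36 protein-coding genes of 21896 placed on the genome: 4 of Cyp2a, 15 of Cyp2c, 8 of Cyp2d, 1 of Cyp2f, 1 of Cyp2g and 7 of Cyp2j. A consensus region of open chromatin was assigned to them when its nearest protein-coding gene, within 100 kb of the gene's span, was one of the 36. This gave 105 of 49587 regions, at 28 of the 36 genes. The other 8 genes, Cyp2c65, Cyp2c66, Cyp2c40, Cyp2c69, Cyp2c54, Cyp2j13, Cyp2j12 and Cyp2j8, had no region. The 100 kb limit did not bind: the furthest regions lay 66467 and 65030 bp from Cyp2d40, and no region beyond 100 kb had a member as its nearest gene.

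Cyp2 enzymes are membrane-bound monooxygenases of the endoplasmic reticulum that take electrons from cytochrome P450 reductase and insert an oxygen atom into their substrate. In liver they oxidise drugs and other foreign compounds, steroids, bile acids and polyunsaturated fatty acids. Their genes are arranged as tandem copies that have multiplied in the mouse, and many are transcribed chiefly in hepatocytes, where nuclear receptors and liver-enriched factors act on their promoters and enhancers.

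ATAC-seq, which uses a transposase to cut accessible DNA and tag it with sequencing adapters, was run on flash-frozen liver of 9-week-old male C57BL/6 mice on chow that had been fasted for 24 h. The 4 genotypes were wild type, a liver-specific knockout of Cpt2 (Cpt2 L-/-), a knockout of Ppara (Ppara -/-), and both together (Cpt2 L-/-; Ppara -/-), with 2 libraries each. Cpt2 encodes an enzyme of the carnitine shuttle, without which mitochondria cannot burn long-chain fatty acids, and Ppara the fatty-acid-sensing nuclear receptor PPARα. The double knockout is described in the labels as lacking Cpt2 in liver and Ppara in the whole body, so loss of Ppara was not limited to hepatocytes. The Cre driver is not given in the sources used here. The wild-type and Cpt2 knockout libraries are called Ppara-intact below, and the Ppara and double knockout libraries Ppara-null. The labels do not say that the 2 libraries of a genotype came from separate animals, so the tests measure only the spread between these libraries.

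The files hold peaks called library by library, with a fold over local background and a −log10 p for each peak, and no read counts. The Ppara-intact libraries had 28733 to 39296 peaks, with a median fold of 6.56 to 7.46, and the Ppara-null libraries 18132 to 22715 peaks, with a median fold of 5.65 to 6.08. A region not called in a library is therefore one without a peak past the authors' threshold, not one shown to be closed, and read depth is unknown. For some single regions below, every intact fold lay above every null fold. The share of all regions with that pattern is not given here, and the null libraries had the lower median folds over whole lists. To set lists of equal length side by side, each library was also cut to its 18132 peaks of highest −log10 p, below called the equal-number lists. The number in the deposited file names was 441, 443, 446 and 4717 for the intact libraries and 6831 to 6834 for the null ones. What that number records is not given, and it cannot be told apart from Ppara status. Regions at the gene ends of 10 of 10 hepatocyte marker genes were called in every intact library and of 8 to 10 in the null libraries. Markers of Kupffer cells were called in none of the 8 libraries (0 of 7). The other counts were 0 to 1 of 7 for endothelial cells, 0 to 1 of 6 for lymphocytes, 1 to 3 (intact) and 0 (null) of 6 for stellate cells, and 2 (intact) and 0 to 1 (null) of 5 for cholangiocytes. These libraries are of whole tissue, in which fewer cells of a type and less accessible DNA per cell cannot be told apart, and the part of other cell types in the results was not tested.

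RefSeq promoter windows (GRCm38.p6, from 250 bases before to 50 bases after the start) were at hand for 30 of the 36 genes, as 32 windows. The 250 bases before the start are printed for 8 genes, 7 with a start region that carries results below and Cyp2c69 for comparison. Each reads 5′ to 3′ on the gene's own strand and ends just before the start. Capitals mark matches to the motifs searched on both strands: the nuclear receptor half-site AGGTCA and its longer form AAAGGTCA, the HNF4-type element CAAAGTCCA, the C/EBP-type TTGCNNAA, the STAT-type TTCNNNGAA, the E-box CACGTG, the PAR bZIP element TTATGTAA and the TATA box TATAAA. AAAGGTCA contains AGGTCA, so a match to the longer form is also a half-site match. The direct repeats DR1 and DR4 of the half-site were also searched.

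The first 3 are Cyp2c genes whose start region was called in every Ppara-intact library and in no Ppara-null library. They are Cyp2c29 (chr19:39286835-39287084, plus strand), Cyp2c68 (chr19:39741102-39741351, minus strand) and Cyp2c70 (chr19:40187287-40187536, minus strand). The fourth, Cyp2c69 (chr19:39886770-39887019, minus strand), had no region in any library and is shown because its window was the closest match to that of Cyp2c68.
Cyp2c29: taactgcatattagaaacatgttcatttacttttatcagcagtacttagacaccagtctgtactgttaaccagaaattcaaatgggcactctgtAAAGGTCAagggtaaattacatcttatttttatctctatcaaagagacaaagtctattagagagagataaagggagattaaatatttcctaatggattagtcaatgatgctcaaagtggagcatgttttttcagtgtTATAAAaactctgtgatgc
Cyp2c68: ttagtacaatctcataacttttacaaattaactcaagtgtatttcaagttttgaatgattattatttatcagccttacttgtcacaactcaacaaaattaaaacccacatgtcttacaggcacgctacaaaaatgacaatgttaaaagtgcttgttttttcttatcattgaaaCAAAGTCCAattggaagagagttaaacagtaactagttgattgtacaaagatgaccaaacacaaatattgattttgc
Cyp2c70: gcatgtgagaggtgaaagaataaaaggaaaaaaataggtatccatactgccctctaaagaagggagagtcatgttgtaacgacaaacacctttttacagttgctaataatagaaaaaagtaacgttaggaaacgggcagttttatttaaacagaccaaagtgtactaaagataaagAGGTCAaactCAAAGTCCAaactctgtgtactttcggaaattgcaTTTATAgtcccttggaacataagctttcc
Cyp2c69: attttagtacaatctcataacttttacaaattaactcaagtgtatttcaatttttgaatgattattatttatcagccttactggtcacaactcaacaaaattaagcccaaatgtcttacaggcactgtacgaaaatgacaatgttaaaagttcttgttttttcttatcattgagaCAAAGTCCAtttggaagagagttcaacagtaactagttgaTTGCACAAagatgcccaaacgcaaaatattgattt

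The next 2 are near-copies of each other with different calls. Cyp2a12 (chr7:27028840-27029089, plus strand) had a start region in all 8 libraries, and Cyp2a22 (chr7:26939387-26939636, minus strand) lacked one in both double knockout libraries.
Cyp2a12: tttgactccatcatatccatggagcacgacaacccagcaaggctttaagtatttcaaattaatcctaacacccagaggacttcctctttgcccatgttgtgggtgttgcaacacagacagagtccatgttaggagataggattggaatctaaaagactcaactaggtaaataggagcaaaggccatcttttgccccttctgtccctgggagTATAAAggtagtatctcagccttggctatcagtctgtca
Cyp2a22: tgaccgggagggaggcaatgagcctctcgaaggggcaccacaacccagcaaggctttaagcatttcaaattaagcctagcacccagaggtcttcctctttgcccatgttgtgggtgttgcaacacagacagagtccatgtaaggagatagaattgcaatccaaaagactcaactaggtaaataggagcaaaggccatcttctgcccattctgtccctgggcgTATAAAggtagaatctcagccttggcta

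The last 2, from the Cyp2j cluster, had a start region in all 8 libraries: Cyp2j5 (chr4:96664120-96664369, minus strand) and Cyp2j6 (chr4:96553652-96553901, minus strand).
Cyp2j5: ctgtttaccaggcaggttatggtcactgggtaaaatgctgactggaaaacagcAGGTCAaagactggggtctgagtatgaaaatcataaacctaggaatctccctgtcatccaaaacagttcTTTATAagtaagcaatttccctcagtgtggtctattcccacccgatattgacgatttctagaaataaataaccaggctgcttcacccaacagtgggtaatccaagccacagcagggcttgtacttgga
Cyp2j6: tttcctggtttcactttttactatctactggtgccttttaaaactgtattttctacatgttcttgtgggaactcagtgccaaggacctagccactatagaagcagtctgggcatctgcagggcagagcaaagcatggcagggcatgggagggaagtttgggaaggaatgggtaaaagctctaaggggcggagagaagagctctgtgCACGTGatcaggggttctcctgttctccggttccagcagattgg

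The HNF4-type letters, which resemble the element bound by the hepatocyte nuclear receptor HNF4α, were found in 6 of the 32 member windows (18.75%), against 0.475% of all 32817 windows of that length in the table. All 6 belonged to Cyp2c genes: Cyp2c40, Cyp2c65, Cyp2c67, Cyp2c68, Cyp2c69 and Cyp2c70. In Cyp2c68 the match ran from -77 to -69 relative to the start. The TATA letters stood in 20 windows (62.5%), against 13.6% of all windows. The half-site stood in 8 (25%, against 16.3%), among them Cyp2c29, Cyp2c70 and Cyp2j5, and its longer form in Cyp2c29 and Cyp2c39 (6.25%, against 1.51%). The C/EBP-type letters stood in 8 windows (25%, against 10.8%), the STAT-type letters in 2 (6.25%, against 8.29%) and the E-box in 1, that of Cyp2j6 (3.125%, against 7.15%). No member window held the PAR bZIP letters (0.935% of all), DR1 (0.0396%) or DR4 (0.0152%). These matches describe letters in a window. Many windows are copies of each other, so they are not independent.

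Pairwise alignment gave 97.7% identity between the windows of Cyp2a4 and Cyp2a5, 91.1% between Cyp2c68 and Cyp2c69, 86.6% between Cyp2c37 and Cyp2c50, 84.5% between Cyp2d11 and Cyp2d9, and 84.0% between Cyp2a22 and Cyp2a12. How reads that match more than 1 place were handled is not given in the sources used here, and its part in the calls at these near-copies was not tested. Calls at Cyp2a4 and Cyp2a5, and at Cyp2c68 and Cyp2c69, are uncertain for that reason.

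The question put to each region was whether its call followed the genotype. Of the 105 regions, wild-type libraries called 64 and 77, Cpt2 knockout libraries 78 and 71, Ppara knockout libraries 33 and 19, and double knockout libraries 37 and 29. Over all regions the shares called were, in the same order, 56.9% and 71.8%, 77.7% and 71.3%, 39.8% and 35.6%, and 44.5% and 35.5%. Every Ppara-intact library thus called more member regions than any Ppara-null library. The share called was 69.0% ± 6.1 (SD, n = 4) in intact and 28.1% ± 7.4 (SD, n = 4) in null libraries, a difference of 41.0 percentage points. Over all 49587 regions the shares were 69.4% ± 8.9 and 38.9% ± 4.3, a difference of 30.6 points. In the equal-number lists the member shares were 33.8% ± 3.0 and 26.4% ± 6.5, a difference of 7.38 points, against 0.686 points over all regions. With equal lists the groups overlapped: intact libraries called 32 to 39 member regions and null libraries 18 to 34. The lowest count, 18, came from Ppara knockout replicate 2.

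**Figure D1:**
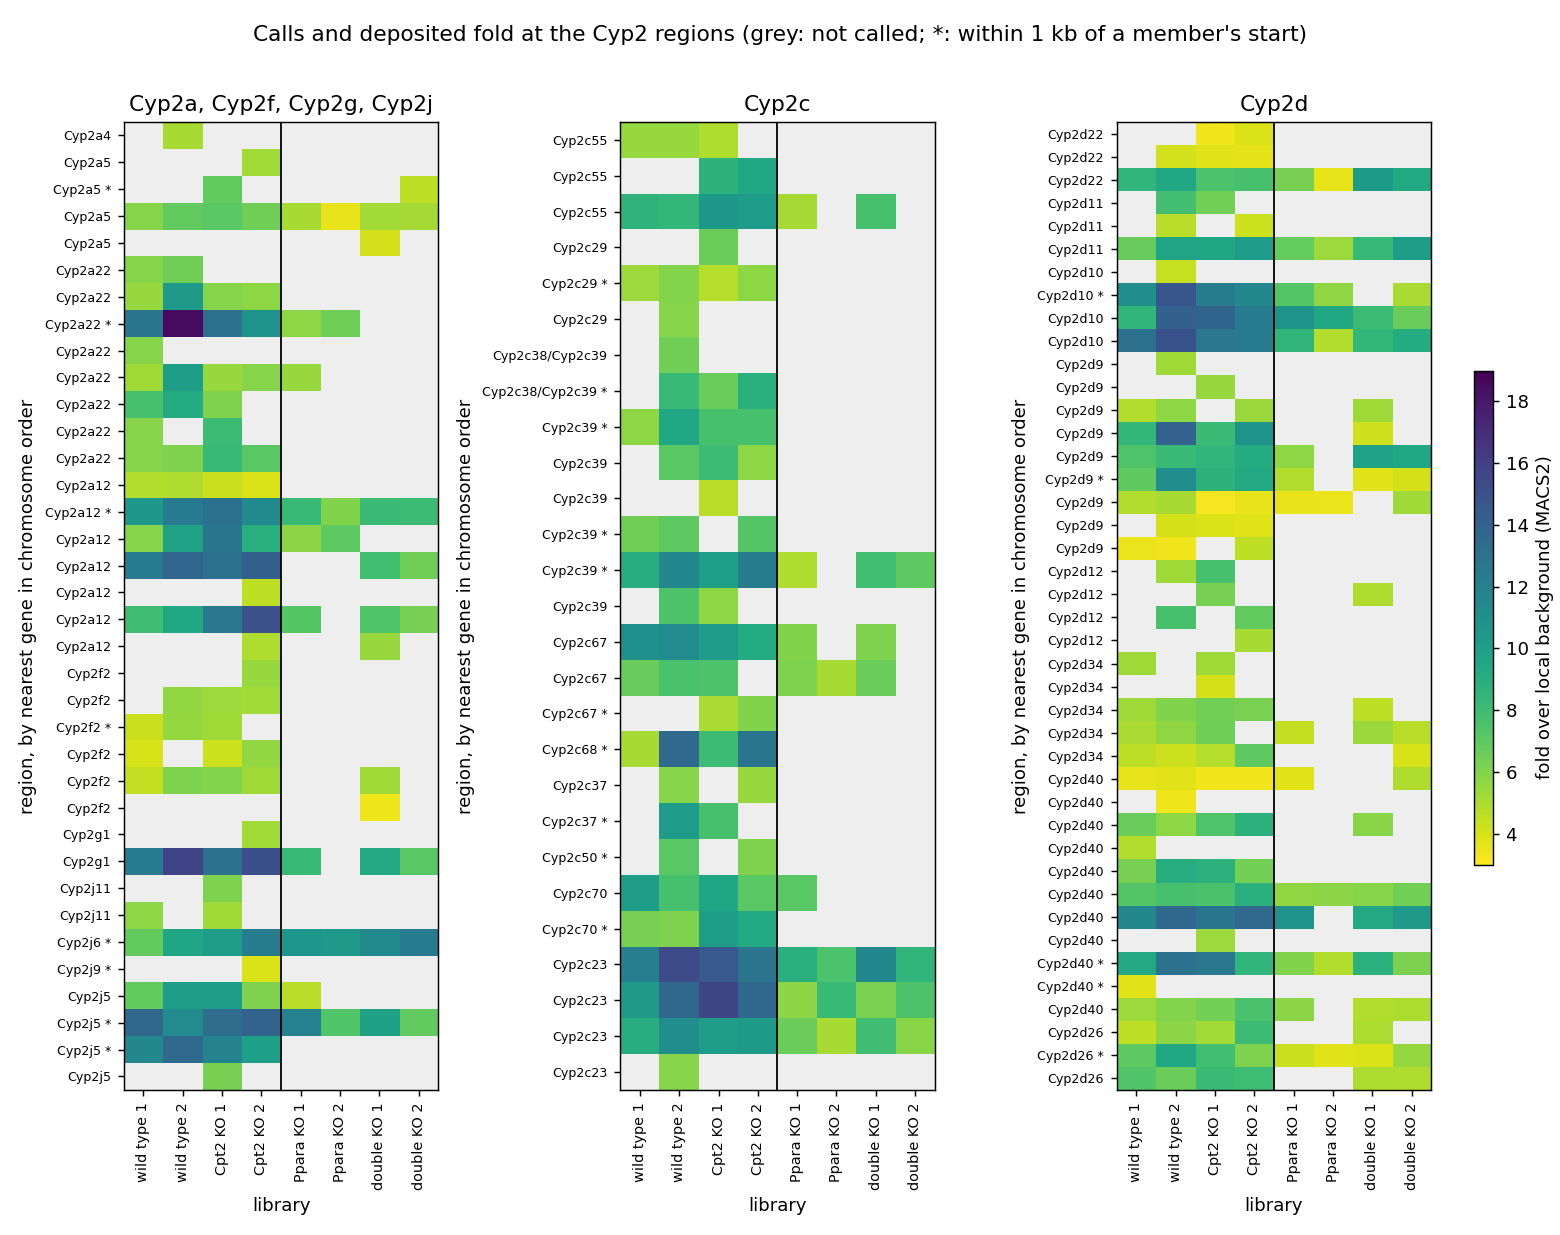
Deposited fold (colour) of the peak at each of the 105 regions (rows, by nearest gene in chromosome order) in each library (columns). Grey means not called, the line parts Ppara-intact from Ppara-null libraries and an asterisk marks a region within 1 kb of a member's start. The 3 Cyp2c23 rows near the foot of the Cyp2c panel are filled in all 8 libraries, and most other Cyp2c rows are grey in the right-hand columns.

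By pattern, 14 regions (13.3%) were called in all 8 libraries, against 22.7% of all regions. A further 9 (8.57%) had a call in every Ppara-intact library and in no Ppara-null library, against 6.82% of all regions. None had the opposite pattern, which was rare everywhere (0.0686% of all regions). A call in at least 1 intact and no null library was made for 58 member regions (55.2%), against 42.3% of all. A call in a null library and in no intact one was made for 2 member regions, against 2694 of all 49587. These lay 1184 bp from Cyp2a5 and inside Cyp2f2, both called in double knockout replicate 1. In equal-number lists this pattern held for 7 member regions, against 6446 of all 49587. Calls in 1 library alone made up 25 regions, against 23% of all regions. In the equal-number lists, 12 member regions were in all 8 (18.3% of all regions) and 2 in all intact and no null list (0.811% of all). The reverse, all null and no intact list, held for 0 (0.512% of all). A further 50 were in none of these lists, against 19570 of all 49587 regions.

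The exact permutation test over the 70 ways of dividing the 8 libraries (two-sided, called or not) cannot go below p = 0.0286. By this exact test 3418 of the 49587 regions stood at that p, the 9 member regions among them, and 0 passed after Benjamini-Hochberg adjustment (smallest adjusted p = 0.415). The member patterns below are therefore counts of calls and not significant differences. Leaving out wild-type replicate 1 or double knockout replicate 1 raised the 9 to 14, and no other library changed it by as much.

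**Figure D2:**
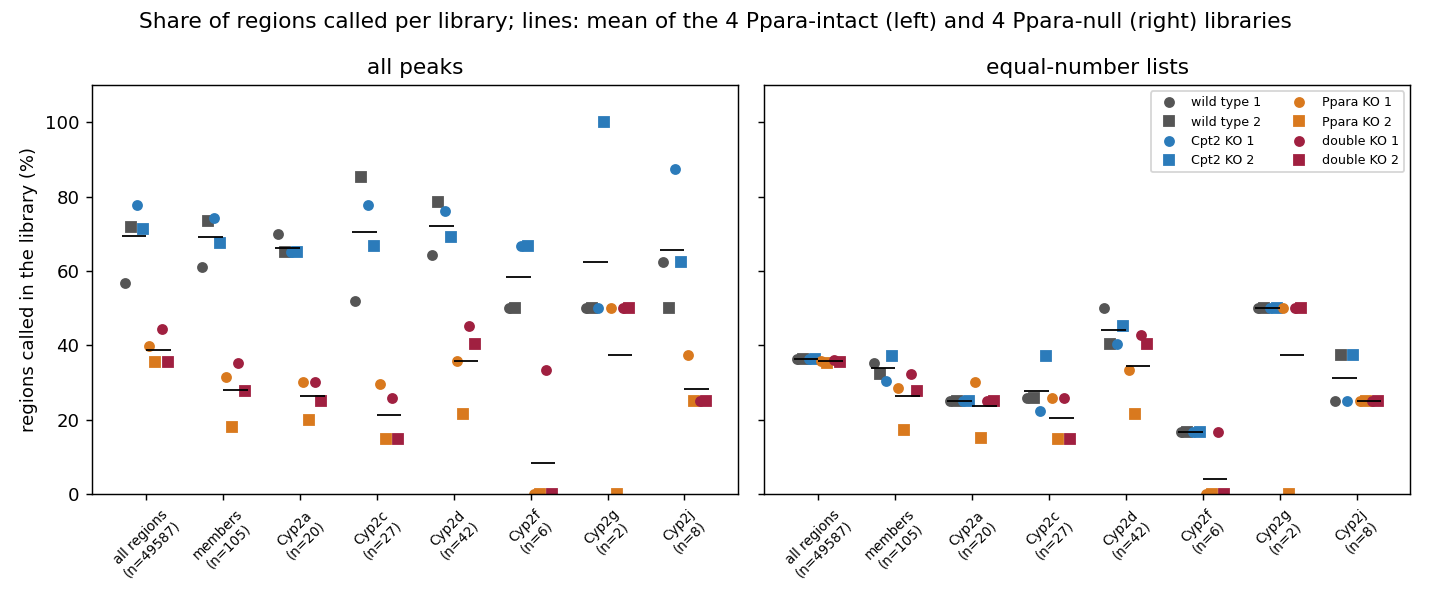
Percent of regions called per library (points, by genotype and replicate) for all regions, the members and each subfamily, in all peaks (left) and in equal-number lists (right), with bars for the mean of the 4 Ppara-intact and the 4 Ppara-null libraries. The gap between the bars is 41.0 points for the members in all peaks and 7.38 points in equal-number lists.

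The Cyp2c subfamily includes arachidonic acid epoxygenases and, in Cyp2c70, the enzyme that makes the muricholic acids of the mouse. It had 27 regions, with 70.4% ± 14.5 called in intact and 21.3% ± 7.6 in null libraries (SD, n = 4 each). Over all regions these shares were 69.4% and 38.9%. The 27 regions split by place. The 23 regions of the main cluster, from Cyp2c55 to Cyp2c70, had 11 to 19 calls in intact libraries (mean 68.5%) and 1 to 5 in null libraries (mean 12%). Of these 23, 0 were called in all 8 libraries, against 22.7% of all regions. No null library called 18 (78.3%), against 42.3% of all regions. All intact and no null library called 4 (17.4%), against 6.82% of all regions. In equal-number lists the main cluster had 3 to 7 calls in intact and 1 to 4 in null libraries, so the groups overlapped.

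Cyp2c23, an arachidonic acid epoxygenase gene that lies apart from the cluster on the same chromosome (chr19:44005022-44029256), had another pattern. Of its 4 regions, 3 were called in all 8 libraries and also in all 8 equal-number lists. At chr19:43999113-43999561, 5461 bp from the gene, the fold was 12.1 and 15.3 in wild type, 14.5 and 12.9 in the Cpt2 knockout, 8.86 and 7.55 in the Ppara knockout, and 11.6 and 8.44 in the double knockout. All 4 intact values lay above the null values, but its percentile in equal-number lists, 77.5 to 82.6 in intact and 73.0 to 89.0 in null libraries, overlapped. At chr19:44004233-44004668, 354 bp from the gene, the percentile was 60.6 to 87.4 in intact libraries, and 25.1, 75.8, 24.2 and 59.5 in the 4 null libraries. There 3 of the 4 null libraries lay below every intact one. The third region, chr19:44021504-44021925 inside the gene, overlapped between the groups on percentile, at 20.8 to 51.1 in intact and 19.1 to 50.5 in null libraries.

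Of the Cyp2c genes printed above, Cyp2c68, Cyp2c70 and Cyp2c29 had a start region called in every intact and no null library. Over the start of Cyp2c68 (chr19:39740926-39741285) the fold was 5.10 and 13.5 in wild type and 8.04 and 12.8 in the Cpt2 knockout, with no peak in the 4 null libraries. The 2 libraries of a genotype differed widely there. Over the start of Cyp2c70 (chr19:40187178-40187568) it was 6.28 and 6.08 in wild type and 10.0 and 9.22 in the Cpt2 knockout. Over the start of Cyp2c29, an arachidonic acid epoxygenase (chr19:39286884-39287230), it was 5.33 and 5.98, then 4.79 and 5.69. The mean percentile of −log10 p in their own lists was 46.3 for Cyp2c68, 35.7 for Cyp2c70 and 11.3 for Cyp2c29, against a median of 37.8 for all regions of this pattern. At Cyp2c68 it ran from 7.28 in wild-type replicate 1 to 71.2 in Cpt2 knockout replicate 2. In equal-number lists Cyp2c68 was in 2 intact lists, Cyp2c70 in 1 and Cyp2c29 in 0. The fourth region of this pattern, chr19:39463926-39464312, lay in the span of Cyp2c39 and 851 bp from the start of Cyp2c38, with folds of 5.69, 9.42, 7.65 and 7.65 and a mean percentile of 33.5. It was in no equal-number list.

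Cyp2c39 was the Cyp2c gene of the main cluster with peaks over a start in Ppara-null liver. The region chr19:39510616-39511034, over the second of its 2 annotated starts, had folds of 9.03 and 11.5 in wild type, 9.97 and 12.2 in the Cpt2 knockout, 4.90 in Ppara knockout replicate 1, and 7.85 and 6.95 in the double knockout. It was not called in Ppara knockout replicate 2. The intact folds all lay above the null ones, while the percentiles in equal-number lists overlapped (27.1 to 69.3 in 4 intact lists, 46.0 and 50.2 in the 2 null lists that held it). The other Cyp2c starts had fewer calls and none in null libraries: 3 intact libraries at Cyp2c38, and 2 each at Cyp2c37, Cyp2c67 and within 1 kb of Cyp2c50. Inside Cyp2c67, but away from its start, chr19:39647528-39647914, was called in 3 intact libraries (folds of 6.73, 7.58 and 7.44) and 3 null libraries (6.08, 5.10 and 6.64), and was in 0 intact and 3 null equal-number lists. Inside the same gene, chr19:39644528-39644928 was called with folds of 11, 11.3, 10.2 and 9.19 in intact libraries, and with 6.05 and 6.08 in replicate 1 of the Ppara and the double knockout. Cyp2c55, with 3 regions, had a like pattern at chr19:39005172-39005526, 1414 bp from the gene: 8.59, 8.44, 10.5 and 10.2 in intact libraries, and 5.13 and 7.65 in the same 2 null libraries.

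Cyp2j enzymes are epoxygenases of polyunsaturated fatty acids. Their 8 regions lay at Cyp2j5, Cyp2j6, Cyp2j9 and Cyp2j11, with 65.6% ± 15.7 called in intact and 28.1% ± 6.3 in null libraries (SD, n = 4 each). Over all regions these shares were 69.4% and 38.9%. Cyp2j5, expressed in liver and kidney, held the highest-ranking of the 9 regions called in all intact and no null library. At chr4:96665007-96665467, 836 bp upstream of the gene, the fold was 11.6 and 13.5 in wild type and 11.9 and 9.95 in the Cpt2 knockout, with −log10 p of 80.4, 139, 111 and 77.1. No null library had a peak there. Its mean percentile was 88.9, and it was in all 4 intact and no null equal-number list. The neighbouring region over the Cyp2j5 start (chr4:96663934-96664439), which covers the sequence printed above, was called in all 8 libraries. Its fold was 13.6 and 11.3 in wild type, 13.3 and 13.9 in the Cpt2 knockout, 12 and 7.32 in the Ppara knockout, and 9.85 and 6.87 in the double knockout. The groups overlapped there through Ppara knockout replicate 1, on fold and on percentile in equal-number lists (75.9 to 92.0 intact, 48.1 to 94.7 null).

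Cyp2j6, a more widely expressed member, ranked the other way. Its start region (chr4:96553229-96553847) had folds of 6.87 and 9.61 in wild type, 10.0 and 12.3 in the Cpt2 knockout, 10.6 and 10.4 in the Ppara knockout, and 11.4 and 12.4 in the double knockout. Cpt2 knockout replicate 2, at 12.3, lay among the 4 null values, and the other 3 intact values lay below all of them. In equal-number lists it was in all 4 null lists, at percentiles of 78.7 to 90, and in 1 intact list, at 50.8. It was the member window with an E-box match. Cyp2j11 had 2 regions, called in no null library, and Cyp2j9 had 1, called in Cpt2 knockout replicate 2 alone.

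**Figure D3:**
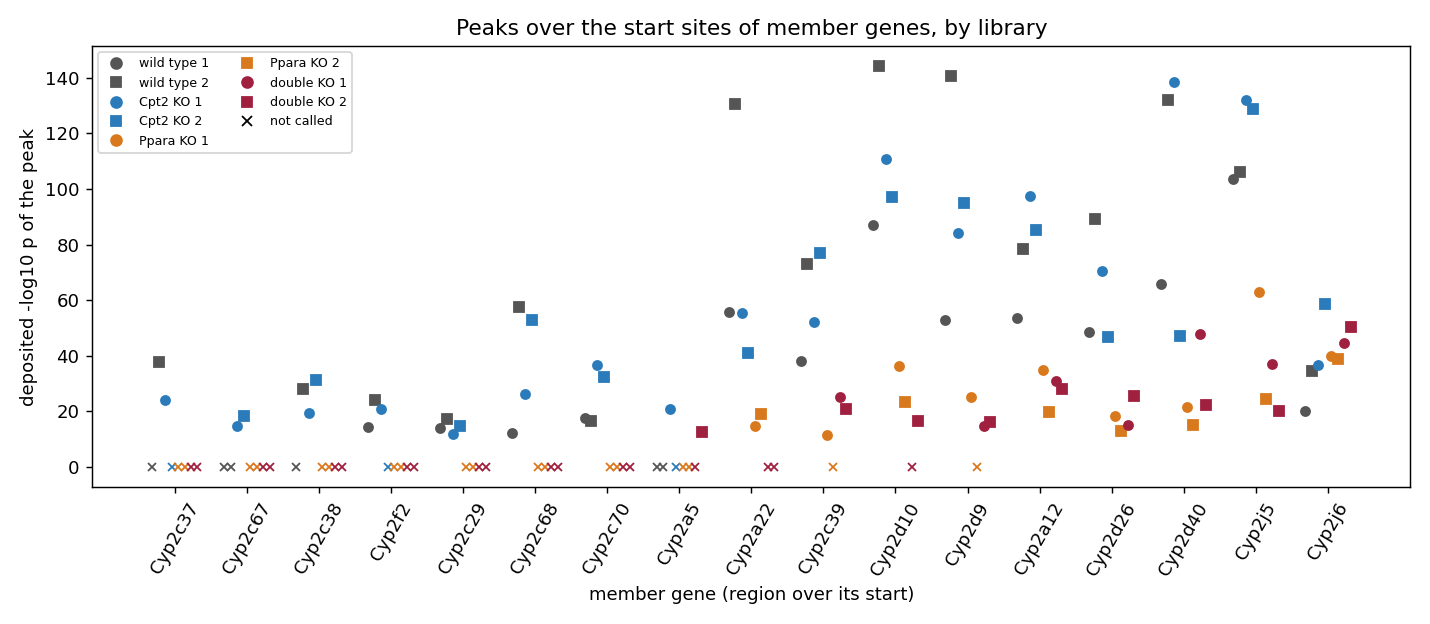
Deposited −log10 p of the peak over the start of each of 17 regions' genes (points, by genotype and replicate), with crosses at 0 for libraries without a call. Crosses fill the 4 Ppara-null places for Cyp2c37, Cyp2c67, Cyp2c38, Cyp2f2, Cyp2c29, Cyp2c68 and Cyp2c70, and there are none for Cyp2a12, Cyp2d26, Cyp2d40, Cyp2j5 and Cyp2j6.

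The Cyp2a cluster holds Cyp2a4, a steroid hydroxylase, Cyp2a5, which hydroxylates coumarin and oxidises nicotine, Cyp2a12, which rehydroxylates secondary bile acids, and Cyp2a22. Of 20 regions, 66.2% ± 2.5 were called in intact and 26.2% ± 4.8 in null libraries (SD, n = 4 each), against 69.4% and 38.9% of all regions. In equal-number lists the Cyp2a counts were 5 in each intact list and 6, 3, 5 and 5 in the null lists, so the Cyp2a gap closed. The start region of Cyp2a12 (chr7:27028773-27029249) had folds of 10.5, 12.4, 13.1 and 11.3 in intact and 8.21, 6.02, 8.09 and 8.01 in null libraries. The folds did not overlap, while the percentiles in equal-number lists did (58.0 to 75.3 intact, 50.5 to 76.1 null). The start region of its near-copy Cyp2a22 (chr7:26939226-26939659) had folds of 12.8 and 18.6 in wild type, 13.1 and 10.8 in the Cpt2 knockout, 5.69 and 6.54 in the Ppara knockout, and no peak in either double knockout library. The wild-type value of 18.6 was in replicate 2.

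Away from the starts, 3 Cyp2a regions (15% of the 20, against 6.82% of all regions) were called in all intact and no null library. They were chr7:26917137-26917522 and chr7:26981996-26982306, 14109 and 42583 bp from Cyp2a22, and chr7:27026719-27027080, 2010 bp from Cyp2a12. Their mean percentiles were 23.1, 26.2 and 11.5, and in equal-number lists the first was in wild-type replicate 2 alone and the others in none. Cyp2a4 had 1 region, called in wild-type replicate 2 alone. Cyp2a5 had 4, of which 1, chr7:26843435-26844362 (171 bp from the gene), was called in all 8 libraries with folds of 5.89 to 7.06 in intact and 3.5 to 5.23 in null libraries. These ranges did not overlap, but in equal-number lists the region was in 0 intact and 3 null lists, the other direction.

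Cyp2f2, best known for activating naphthalene in airway club cells, had 6 regions, with 3 to 4 calls in each intact library and 0, 0, 2 and 0 in the null ones. For Cyp2f2 the mean shares were 58.3% and 8.33%, against 69.4% and 38.9% of all regions. The region over its start (chr7:27119714-27120043) was called in 3 intact libraries and no null library. Cyp2g1, known from olfactory mucosa, had 2 regions. The region chr7:26800988-26801432, 7495 bp from the gene, was a strong peak in intact libraries (folds of 12.4, 15.7, 13.0 and 15.1) and was called in 3 null libraries with lower folds (8.21, 9.35 and 7.06), but not in Ppara knockout replicate 2. Its percentiles in equal-number lists overlapped, at 33.6 to 71.6 in intact and 51.2 to 70.6 in null libraries.

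The Cyp2d cluster, which includes Cyp2d22, a counterpart of human CYP2D6, and Cyp2d9, a steroid hydroxylase expressed mainly in male liver, held the largest group, 42 regions. Intact libraries called 72.0% ± 6.6 of them and null libraries 35.7% ± 10.3 (SD, n = 4 each), against 69.4% and 38.9% of all regions. In equal-number lists the counts were 17 to 21 in intact and 14, 9, 18 and 17 in null libraries. Of the 42, 7 (16.7%) were called in all 8 libraries, against 22.7% of all regions. A call in all intact and no null library was made for 1 (2.38%), against 6.82% of all regions. That one, chr15:82707182-82707724, lies 52109 bp from Cyp2d40 over the pseudogene Cyp2d38-ps, with folds of 6.25, 9.02, 8.71 and 6.36 and a mean percentile of 74.4. It was also in all 4 intact and no null equal-number list, a pattern that among the 105 members only it and the Cyp2j5 upstream region had.

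The 7 Cyp2d regions called in all 8 libraries included those over the starts of Cyp2d26 (chr15:82794114-82794695) and Cyp2d40 (chr15:82763630-82764336). At Cyp2d26 the fold was 6.98, 9.45, 7.82 and 6.10 in intact and 4.29, 3.75, 3.85 and 5.51 in null libraries, without overlap, while the percentiles in equal-number lists overlapped (33.1 to 66.0 and 3.39 to 63.0). At Cyp2d40 it was 9.32, 12.9, 12.6 and 8.44 in intact and 6.01, 4.85, 8.75 and 6.13 in null libraries. Double knockout replicate 1, at 8.75, lay above Cpt2 knockout replicate 2 there. At chr15:82422858-82423939, 15605 bp from Cyp2d10, the −log10 p was 142 and 176 in wild type and 143 and 135 in the Cpt2 knockout. It was 49.2 and 15.9 in the Ppara knockout and 52.3 and 54.2 in the double knockout. Its percentile in equal-number lists was 87.5 to 95.6 in intact libraries and 89.0, 33.0, 84.3 and 91.7 in null ones, so that Ppara knockout replicate 2 stood alone at the low end.

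The other Cyp2d genes varied in how many regions they held. Cyp2d9 had 9, of which intact libraries called 6 to 8 and null libraries 1 to 4. At its start (chr15:82452173-82452592) the fold was 6.88, 11.2, 8.68 and 9.32 in intact libraries, and 4.87, 3.81 and 4 in the 3 null libraries that called it. The start of Cyp2d10 (chr15:82406956-82407490) had folds of 11, 14.7, 12.3 and 11.6 in intact and 7.27, 5.65 and 5.03 in null libraries, without a call in double knockout replicate 1. At both starts every intact fold lay above every null fold, a pattern whose share over all regions is not given here. On percentile in equal-number lists this held among the calls at Cyp2d9 (61.6 to 87.4 and 2.58 to 56.4), while Cyp2d10 overlapped (77.0 to 88.4 and 31.7 to 77.7). The region 1915 bp from Cyp2d9 (chr15:82450041-82450462) did not follow this: its folds were 7.43, 8.19, 8.46 and 9.15 in intact libraries, 5.72 in Ppara knockout replicate 1, and 9.80 and 9.40 in the double knockout. There both double knockout values lay above every intact one, also on percentile in equal-number lists (90.1 and 94.7, against 46.4 to 71.0 in intact libraries). Cyp2d34 had 5 regions, with 2 to 5 calls in intact and 0 to 2 in null libraries, and Cyp2d12 had 4, with 0 to 2 and 0 to 1.

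Ppara knockout replicate 2 also accounted for calls missed by no other library. It was the one library without a call at 7 member regions, against 2 for double knockout replicate 1 and 0 for each of the other 6 libraries. The 7 lay at Cyp2d9 (2), Cyp2d40 (2), Cyp2c39, Cyp2g1 and Cyp2a12. Over all regions the same happened at 3.20% for Ppara knockout replicate 2, 2.77% for double knockout replicate 2 and at most 1.18% for any other library. Ppara knockout replicate 2 called 18.1% of the member regions but 35.6% of all regions, and double knockout replicate 2, with a list of nearly the same length, 27.6% and 35.5%. Without each library in turn, the difference in member share between intact and null libraries ran from 37.6 to 43.7 points.

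Across the gene starts, 17 member regions covered a start in the promoter table. Of these, 5 were called in all 8 libraries (Cyp2a12, Cyp2d26, Cyp2d40, Cyp2j5 and Cyp2j6), against 56.8% of the 9123 regions that covered any gene's start. The pattern of all intact and no null libraries held at 3 (Cyp2c29, Cyp2c68 and Cyp2c70), against 4.45%. No null call was made at 7, against 14.3% of the regions over any start, and 6 of these 7 were Cyp2c starts. With the distance set at 1 kb from a start, 23 regions were included, 5 of them (21.7%) in all 8 libraries and 5 (21.7%) in all intact and no null library. Over all 12095 regions that near a start (24.4% of all regions) these shares were 45.8% and 5.21%. Of the 82 member regions further away, 9 (11%) were called in all 8 libraries and 4 (4.88%) had the intact-only pattern, against 15.3% and 7.35% of all regions further than 1 kb from any start.

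For the regions present in all 8 equal-number lists, the percentile of −log10 p gives a rank that does not depend on list length. This left 12 member regions of 9073, at Cyp2d22, Cyp2d11, Cyp2d10 (2), Cyp2d40 (2), Cyp2d26, Cyp2c23 (3), Cyp2j5 and Cyp2a12. The median of intact minus null was 9.47 percentile points, with 9 of 12 lower in null libraries, against 1.38 points and 5050 of 9073 over all such regions. By the exact permutation test (two-sided), 1001 of 9073 had an unadjusted p under 0.05, intact above null in 5.96% and the reverse in 5.07% of regions. In the same exact test none passed after Benjamini-Hochberg adjustment (smallest adjusted p = 0.259), and none of the 12 members had an unadjusted p under 0.05. In the exact test on fold in place of −log10 p, 1036 regions had an unadjusted p under 0.05 and none passed either (smallest adjusted p = 0.250). On fold the median difference of the 12 members was 1.07 points, with 7 of 12 lower in null libraries, against -0.68 points and 4256 of 9073 over all such regions. Cyp2d22 turned from 14.1 points on −log10 p to -24.1 on fold, and the Cyp2d40 region 51440 bp from the gene from 4.81 to -17.4. Cyp2d11 was the member with the largest difference in the other direction: its region 1954 bp from the gene had percentiles of 30.2, 58.5, 49.3 and 69.1 in intact and 66.4, 54.5, 74.1 and 89.8 in null libraries, which overlapped.

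**Figure D4:**
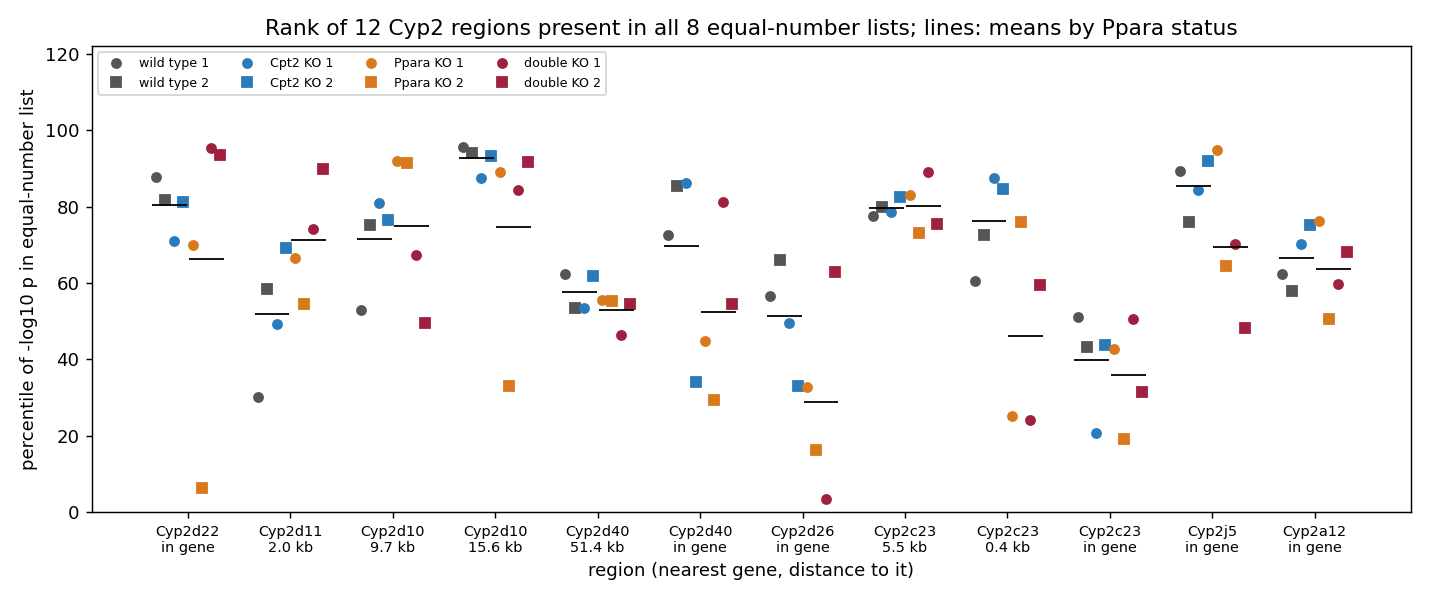
Percentile of −log10 p within the equal-number list for the 12 member regions present in all 8 lists (points, by genotype and replicate), with bars for the mean of the Ppara-intact (left) and Ppara-null (right) libraries. Intact and null points overlap at each region, and Ppara knockout replicate 2 lies apart at 33.0 beside Cyp2d10 and at 6.35 in Cyp2d22.

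Single genotypes were then compared, a region counting when both libraries of one genotype and neither of the other called it. With 2 against 2 libraries an exact test cannot go below p = 0.333, so these are counts. The comparisons share libraries and are given side by side. Between the Cpt2 knockout and wild type, 3 member regions were called in the knockout alone (3.63% of all regions were) and 1 in wild type alone (0.512% of all). The 3 included chr19:38998716-38999078 near Cyp2c55, over the pseudogene Cyp2c52-ps, with folds of 8.63 and 9.42, and the Cyp2c67 start region, with 5.03 and 6.06. The wild-type region, chr7:26916140-26916402 near Cyp2a22, had folds of 5.89 and 6.47. Among equal-number lists, 1 member region was in the knockout alone (0.918% of all regions) and 0 were in wild type alone (0.815%). With wild-type replicate 1 left out the all-peak counts became 4 and 8, so even their direction rested on that library.

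Between the Ppara knockout and wild type, 24 member regions were called in wild type alone (13.6% of all regions) and 0 in the knockout alone (0.46%). Between the double knockout and wild type, the counts were 20 (12.9%) and 0 (1.2%), and between the double and the Cpt2 knockout 23 (20.4%) and 0 (0.597%). The Cyp2j5 upstream region headed each of these 3 comparisons by mean percentile, followed by the region near Cyp2d40 in the first and the third and by the Cyp2a22 start in the second. In equal-number lists the counts in wild type alone and knockout alone were 8 (3.44%) and 3 (2.38%) for the Ppara knockout, and 4 (3.35%) and 2 (3.08%) for the double knockout. For the double against the Cpt2 knockout they were 4 (2.99%) in the Cpt2 knockout alone and 1 (2.61%) in the double knockout alone. Without wild-type replicate 1 the counts in wild type alone were 44 against the Ppara and 40 against the double knockout. Without Ppara knockout replicate 1 the first was 38, and without its replicate 2 it was 24 as before. The count in the Cpt2 knockout alone was 35 without its replicate 1 and 40 without its replicate 2.

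The double and the Ppara knockout differed at 4 member regions, 2 in each direction (2.33% and 1.45% of all regions). Called in the double knockout alone were chr7:27048847-27049305, 12029 bp from Cyp2a12, with folds of 7.85 and 6.47, and chr15:82795942-82796455, 1490 bp from Cyp2d26, with 4.97 and 4.91. Called in the Ppara knockout alone were chr7:27039935-27040374, 3117 bp from Cyp2a12, with 5.76 and 6.97, and the Cyp2a22 start region. All 4 were called in every Ppara-intact library. In equal-number lists 3 were in the double knockout alone (2.03% of all regions) and 2 in the Ppara knockout alone (1.84%). The all-peak counts became 10 and 2 without Ppara knockout replicate 1, 2 and 5 without its replicate 2, 4 and 3 without double knockout replicate 1, and 12 and 4 without its replicate 2.

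Other P450 families give the scale of these shares. Over all regions the shares called were 69.4% in intact and 38.9% in null libraries, and 6.82% had a call in all intact and no null library. The 15 regions of Cyp2b, the phenobarbital-inducible subfamily, were called at 65.0% in intact and 21.7% in null libraries, and the 28 of Cyp3a, drug and steroid oxidases, at 70.5% and 35.7%. The 20 regions of Cyp4a, fatty acid hydroxylases known as PPARα targets, were called at 70% in intact libraries and 0% in null libraries, with 9 of 20 in all intact and no null library, against 9 of 105 for the members. The 14 regions of the other Cyp2 genes were called at 76.8% and 50%. In equal-number lists the gap between intact and null libraries was 3.33 points for Cyp2b, 8.04 for Cyp3a, 30 for Cyp4a and -8.93 for the other Cyp2 genes, where the direction turned, against 7.38 for the members. The 8 regions of Cyp1, oxidases of aromatic hydrocarbons, were called at 75% and 37.5% in all peaks, and the direction turned there too, with a gap of -6.25 points in equal-number lists. No test of the difference between families was made. For the 27 genes of regulators and redox partners of these enzymes (Hnf4a, Nr1i2, Nr1i3, Por and others), 245 regions were called at 77.9% and 44.2%. Of these, 68 (27.8%) were called in all 8 libraries, against 22.7% of all regions. All intact and no null library called 23 (9.39%, against 6.82%), and 0 had the reverse. In equal-number lists the gap was 4.08 points, against 0.686 over all regions. There 2 (0.816%, against 0.811%) were in all intact and no null list, and 2 in the reverse. With all peaks, Nr1i3, which encodes the receptor CAR, had 1 of its 2 regions in the intact-only group. Por, the reductase that passes electrons to the P450s, had 0 of 11.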

How the data were processed

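Libraries were grouped by genotype from the labels, 2 to a genotype. Peaks were called per library with MACS2 2.1.0 on mm10, after alignment with BWA, per the submitters' processing notes. Duplicate handling and any Tn5 offset are not given in the sources used here. Each deposited peak carries the authors' fold over local background and their −log10 p and −log10 q, and the deposited consensus table holds positions only. The authors' fold and −log10 p were used within a list to describe and rank peaks. A region counted as called when a peak overlapped it by 1 bp or more. Members and lists were chosen with earlier results of these data known.

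Regions took the nearest protein-coding gene of the RefSeq table within 100 kb. Regions named are those called in all intact and no null library (at most 12), up to 8 in all 8 libraries by mean percentile (at most 2 a gene), the 2 of highest mean percentile for each direction of a pair of genotypes, and those within 1 kb of a member's start. Other members named in the text were chosen after their values were seen. Calls and percentiles were compared by Ppara status with exact permutation tests (NumPy 2.4.6) over all regions, with Benjamini-Hochberg adjustment, tested on simulated data. Alternatives were equal-number lists, −log10 q of at least 20, 50% cover, a 10 kb limit, leaving out each library, and the replicate number as a block. Promoter windows and motifs came from RefSeq sequence. Scripts used Python 3.11.15, NumPy 2.4.6 and pandas 2.3.3.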

Additional observations from a re-analysis of the deposited data

Results flagged for a closer look

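At 2 Cyp2d regions present in all 8 equal-number lists, the change of percentile from Ppara-intact to Ppara-null went one way in both libraries of one Cpt2 background and the other way in both libraries of the other. These 2 are of the 12 ranked member regions. How many of all 9073 ranked regions have this pattern is not given here, so it cannot be called particular to these members. The difference was not tested in either case. At the Cyp2d22 region (chr15:82379418-82380708) the percentile was 87.8 and 81.7 in wild type against 69.9 and 6.35 in the Ppara knockout, and 70.9 and 81.2 in the Cpt2 knockout against 95.3 and 93.5 in the double knockout. The effect with Cpt2 intact minus that with Cpt2 deleted was -65.0 percentile points, and -33.2 without Ppara knockout replicate 2. At the region 9679 bp from Cyp2d10 (chr15:82416932-82417890) it was 53.0 and 75.0 in wild type against 91.8 and 91.4 in the Ppara knockout, and 80.9 and 76.6 in the Cpt2 knockout against 67.3 and 49.6 in the double knockout, a difference of 47.9 points. With 50% of the region's length required to be covered, the first region was called in 4 intact and 1 null library and the second in 2 intact and 0 null libraries, so most or all of the null calls behind these values come from peaks that cover less of the region.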

How the results depend on the processing

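The opposite pattern, all null and no intact library, was met by 0 member regions under each alternative run. The 9 regions with all intact and no null calls became 2 in equal-number lists and 9 to 14 with 1 library left out. At −log10 q of at least 20 the count was again 9, but not of the same regions. Of the original 9, only the Cyp2j5 upstream region and the one near Cyp2d40 kept all 4 intact calls. At that threshold the start region of Cyp2c68 had 3 intact calls, that of Cyp2c70 2 and that of Cyp2c29 0. The difference in share, 41.0 points, became 7.38 in equal-number lists, 30.5 at −log10 q of at least 20, and 37.6 to 43.7 with 1 library left out. For pairs of genotypes, the counts in equal-number lists were 1 (Cpt2 knockout against wild type, from 4), 11 (Ppara knockout against wild type, from 24), 6 (double knockout against wild type, from 20) and 5 (double against Cpt2 knockout, from 23). The count for the Ppara knockout was 14 with a 10 kb limit, and that for the double against the Ppara knockout, 4, was 1 at −log10 q of at least 20. With 1 library left out the ranges were 4 to 16, 24 to 44, 20 to 40, 23 to 40 and, for the double against the Ppara knockout, 4 to 16. Without wild-type replicate 1 the first count was 12 and its balance turned from the knockout to wild type. Shorter lists hold fewer weak peaks, and a single library asks for less agreement. The causes of these shifts were not tested. The number of the 12 ranked regions whose groups did not overlap was 0 and became 0 to 1 with 1 library left out.

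Replicate numbers in the labels did not pair the libraries: same-numbered libraries correlated at -0.0263 to 0.0583 in their deviations from the genotype mean. With the replicate block, 0 of the 9 member regions had an exact p under 0.05, since the 36 orders it allows cannot go below p = 0.0556. Peak calls without read counts cannot give the size of a change, and depth is unknown.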
